A study of Caenorhabditis briggsae with 6 samples.

Results

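Cbr-pcp-1.1 (WBGene00023546, locus CBG00036) and Cbr-pcp-1.2 (WBGene00023545, locus CBG00035) are neighbouring genes of the nematode Caenorhabditis briggsae that carry the names of 2 copies of one prolyl carboxypeptidase gene. These 2 rows, of 23169 genes in the count table, were picked because earlier results of the same libraries had shown them moving apart in a Cbr-ivph-3 mutant. Their levels and their ratio are therefore described here, with no test offered as evidence of a difference between the genotypes. RNA was sequenced from whole hermaphrodites at the L3 larval stage, staged by the divisions of the vulval precursor cells and grown at 20 °C on plates of Escherichia coli OP50. The 3 wild-type libraries came from strain AF16, and the 3 mutant libraries from strain PS9217, genotype Cbr-ivph-3(sy5216), where a single base substitution puts a premature stop codon into Cbr-ivph-3. The study describes the replicates as independent biological samples. The mutant group is 1 strain with 1 allele, so effects of the allele and of anything else that strain carries cannot be told apart.

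Prolyl carboxypeptidases are serine peptidases that take the last amino acid off a peptide chain when the residue before it is proline, a bond that most other carboxypeptidases leave alone. The mammalian enzyme works in the acid interior of the lysosome, and it shortens peptide hormones such as angiotensin and melanocyte-stimulating hormone. Nematodes carry several genes of this family, and C. elegans gene names lend their number to the C. briggsae copies, with a suffix for each copy where C. briggsae has more than one.

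In the RefSeq annotation of assembly CB4, used for gene order only, both copies lie on chromosome III with 0 annotated genes between them. No other annotated gene overlaps either copy there, with a count of 0 overlapping genes for each. The word neighbouring in their description therefore holds. Their likeness in sequence was not examined, and neither was the share of reads that could match both copies. The study's list of counting settings gives a minimum mapping quality of 0 and leaves the entry for reads assigned to several features blank, so the split of reads between near-identical stretches of the copies is uncertain. The same counting was applied to all 6 libraries.

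The libraries held between 22817581 and 30865944 counted read pairs. Cbr-ivph-3 itself, the gene with the stop codon, stood at 36.5, 34.5 and 33.0 counts per 1000000 counted read pairs (CPM) in wild type and at 21, 20.9 and 20.9 CPM in the mutant. CPM here are computed after TMM scaling, which sets the libraries level on the bulk of their genes. Mutant replicate 1 stood apart from the other mutant libraries, with a median absolute deviation of 0.50 on the log2 scale over the 14241 genes tested and 2861 genes (20.1%) more than 1 log2 unit away. The differences of the copies, and the counts of calls over all genes, neighbours, copy pairs and the genes named through other mutants, are therefore also given without it.

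Cbr-pcp-1.1 was the copy with few reads, and its level was higher in every mutant library. It had 45, 64 and 48 read pairs in the wild-type libraries. In the mutant libraries it had 121, 116 and 155 read pairs. Every mutant value was above every wild-type value. The nearest unscaled counts, 64 and 116, had 95% counting intervals that did not meet, with the wild-type one reaching up to 81.7. That gap does not carry over to the scaled levels. On the TMM scale the interval of wild-type replicate 2 meets those of mutant replicates 1 and 2. Scaled to CPM, wild type had 2.00, 2.86 and 2.10, a mean of 2.32 ± 0.467 (SD, n = 3). The mutant had 4.19, 4.33 and 4.34 CPM, a mean of 4.29 ± 0.0852 (SD, n = 3). The mutant mean was thus 1.85-fold the wild-type mean, or 0.88 higher on the log2 scale with a standard error of 0.21. Without mutant replicate 1 the log2 difference was 0.89. The difference of 1.97 CPM was larger than the spread between replicates in either genotype. Replicate 2 was the highest of the wild-type libraries, and the mutant libraries were closer to each other than counting error alone would place them on average, with a coefficient of variation of 1.99% where their read numbers give 8.75% by counting. The small mutant SD is therefore no measure of precision.

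Cbr-pcp-1.2 was the copy with most of the reads, and its level was lower in every mutant library on the TMM scale. It had 942, 925 and 940 read pairs in wild type. The mutant libraries held 881, 945 and 1266 read pairs, so the unscaled counts of the genotypes overlapped. In CPM, wild type had 41.9, 41.3 and 41.2, a mean of 41.4 ± 0.395 (SD, n = 3). The mutant had 30.5, 35.3 and 35.5 CPM, a mean of 33.7 ± 2.81 (SD, n = 3). The groups did not overlap on this scale, and the mutant mean was 0.814 of the wild-type mean, a log2 difference of −0.30 with a standard error of 0.12. Mutant replicate 1 was the lowest of the 6 libraries for this copy. Without mutant replicate 1 the log2 difference was −0.24. The wild-type libraries again lay closer together than counting predicts, at 0.954% against 3.27%.

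**Figure D1:**
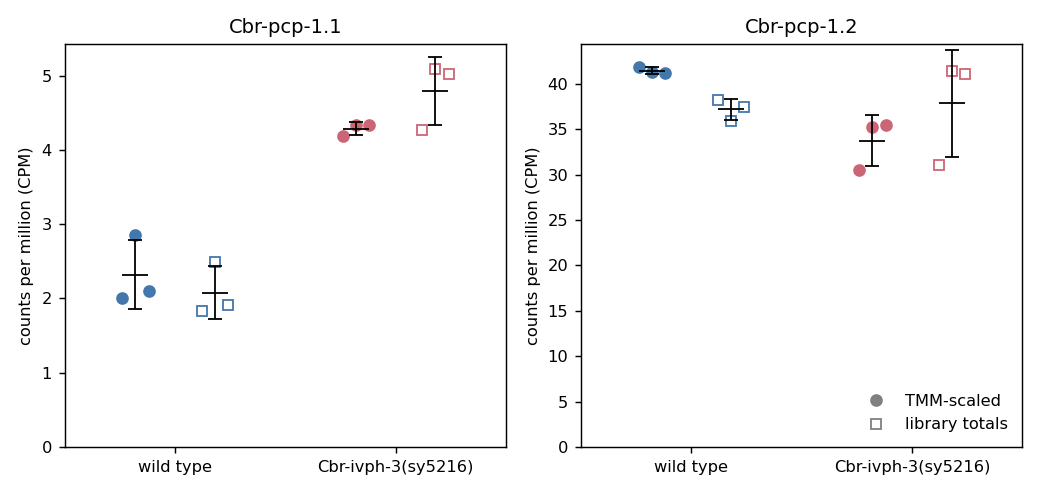
Level of each copy in CPM (vertical axes, from 0) in the 3 wild-type and 3 Cbr-ivph-3(sy5216) libraries. Filled circles are TMM-scaled and open squares are scaled to the library totals, each symbol is 1 library, and bars are the mean ± SD. Cbr-pcp-1.1 is higher in all mutant libraries on both scales, whereas for Cbr-pcp-1.2 the genotypes are apart with TMM (41.4 and 33.7 CPM) and overlap with library totals (37.2 and 37.8 CPM).

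The direction for Cbr-pcp-1.2 depended on how libraries were set level with each other, and that for Cbr-pcp-1.1 did not. With plain library totals Cbr-pcp-1.2 had 38.3, 35.9 and 37.4 CPM in wild type and 31, 41.4 and 41.0 CPM in the mutant. The wild-type libraries then lay inside the range of the mutant libraries, and the log2 difference was 0.025. On that same scale the wild-type mean of Cbr-pcp-1.1 was 2.07 ± 0.358 CPM and its mutant mean 4.79 ± 0.459 CPM (SD, n = 3 each), which put the log2 difference at 1.2, with no overlap between the genotypes. Library totals also moved the median gene, whose log2 difference was 0.37 with totals, 0.06 with TMM, 0.03 with DESeq2 size factors and 0.14 with upper-quartile scaling. With TMM and with library totals alike, Cbr-pcp-1.1 was 0.83 above the median gene and Cbr-pcp-1.2 was at −0.35 relative to it. That likeness comes from the scalings themselves, which move all genes nearly alike, and is no sign of stability. Opposite directions in level were seen with TMM, DESeq2 size factors and upper-quartile scaling, and not with library totals.

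**Figure D2:**
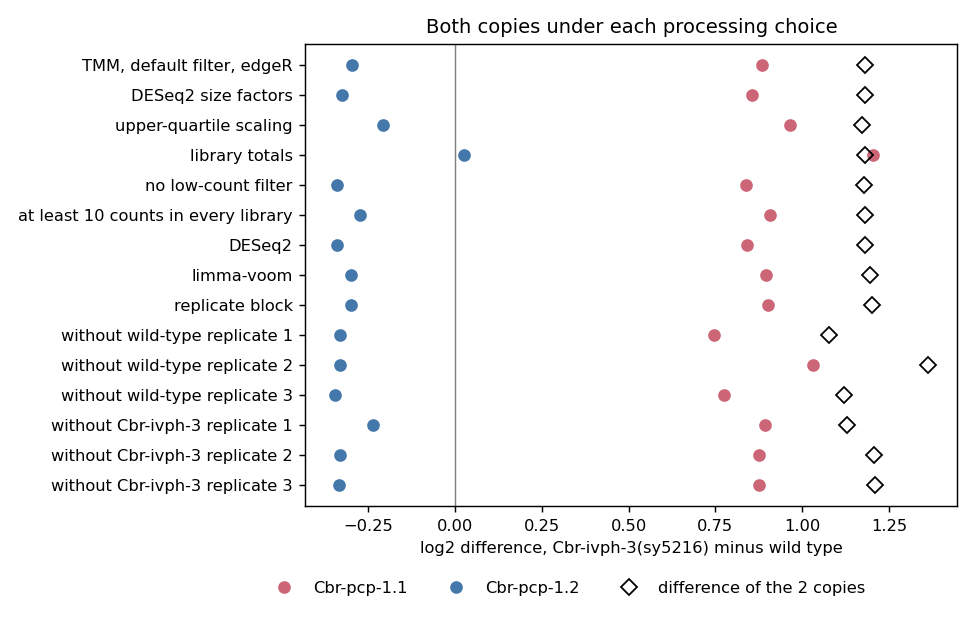
Log2 difference between mutant and wild type (horizontal axis) for Cbr-pcp-1.1, Cbr-pcp-1.2 and their difference, 1 line for each processing choice or left-out library. Cbr-pcp-1.1 stays between 0.75 and 1.2, Cbr-pcp-1.2 lies at or below −0.21 except with library totals (0.025), and the difference of the copies is 1.18 both with TMM and with library totals, since a scaling moves both copies alike.

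In the test across all genes, 11.7% of the 14241 genes tested were called higher in the mutant and 9.80% lower, by edgeR's quasi-likelihood test at a Benjamini-Hochberg adjusted p below 0.05. Without mutant replicate 1 these shares were 31.1% and 28.6%. Of the 2 copies, Cbr-pcp-1.1 was among the genes called higher and Cbr-pcp-1.2 was not called. Since the copies were picked on this contrast, these calls are given as a description. The call for Cbr-pcp-1.1 was lost without wild-type replicate 1, where the log2 difference was 0.75, and without wild-type replicate 3 (0.77). It was likewise lost without mutant replicate 2 (0.88) or mutant replicate 3 (0.87). Cbr-pcp-1.2 was called lower without mutant replicate 1 and by DESeq2. In these 2 of 14 alternatives Cbr-pcp-1.1 was also called higher, so the copies were called in opposite directions there. DESeq2 called 11.8% of its tested genes higher and 12.1% lower. Neither size was extreme in this data set: 12.1% of tested genes had a higher log2 difference than Cbr-pcp-1.1, and 25.8% had a lower one than Cbr-pcp-1.2. The mutant values exceeded all wild-type values for 22.2% of tested genes, as for Cbr-pcp-1.1, and were below all of them for 20.1%, as for Cbr-pcp-1.2.

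The ratio of the copies within a library needs no scaling between libraries, and it was shifted towards Cbr-pcp-1.1 in the mutant. Wild type had 20.9, 14.5 and 19.6 read pairs of Cbr-pcp-1.2 for each read pair of Cbr-pcp-1.1, a mean of 18.3 ± 3.42 (SD, n = 3). The mutant had 7.28, 8.15 and 8.17, a mean of 7.87 ± 0.506 (SD, n = 3). All mutant ratios were below all wild-type ratios. Ratios as fully apart between the genotypes were found for 55.6% of 27 other pairs of named gene copies and for 56.5% of 878 other pairs of adjacent genes, so separation of this kind was common among them. Both sets were named mostly through lists of genes called in this mutant or in others. The shares are therefore no rate for gene pairs at large. On the log2 scale the ratio of Cbr-pcp-1.1 to Cbr-pcp-1.2 averaged −4.18 ± 0.28 over wild-type libraries and −2.97 ± 0.09 over mutant libraries (SD, n = 3 each). The shift was 1.2 with a standard error of 0.17, equal to 2.30-fold, and the lowest mutant library was 0.82 above the highest wild-type library. Leaving out any 1 library gave shifts between 1.1 and 1.37, with 1.15 without mutant replicate 1. These are ratios of reads and not of transcript levels, because reads were not divided by transcript length. Any effect of length is the same in both genotypes and leaves the shift as it is, so long as the transcripts themselves are the same.

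Expressed as a share of the reads of both copies, Cbr-pcp-1.1 took 4.56, 6.47 and 4.86% in the wild-type libraries. The exact (Clopper-Pearson) 95% intervals were 3.34 to 6.05%, 5.02 to 8.19% and 3.60 to 6.39%. In the mutant libraries it took 12.1, 10.9 and 10.9%, with intervals of 10.1 to 14.3%, 9.12 to 13% and 9.33 to 12.6%. No interval of a mutant library met that of a wild-type library. These intervals cover counting error only. They treat read pairs as independent, though the reads carried no molecular identifiers. The mean share was 5.30 ± 1.03% for wild type against 11.3 ± 0.667% for the mutant (SD, n = 3 each). A two-sided exact test of the read numbers across the 3 libraries of a genotype gave p = 0.136 in wild type and p = 0.627 in the mutant, so no spread between replicates beyond counting was detectable at this depth. That test does not compare the genotypes. The pair was picked for its shift, so neither the test nor the intervals are evidence for it.

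**Figure D3:**
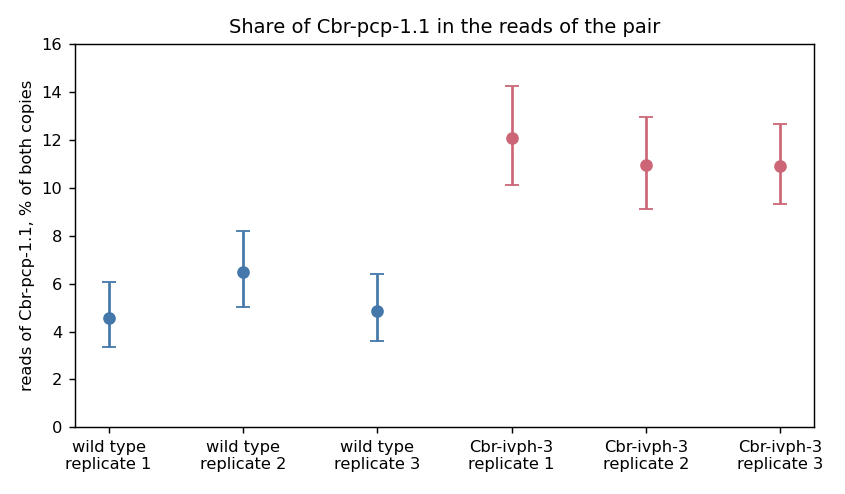
Reads of Cbr-pcp-1.1 as a percentage of the reads of both copies (vertical axis, from 0) in each library, with exact 95% counting intervals as bars. The wild-type libraries lie between 4.56 and 6.47% and the mutant libraries between 10.9 and 12.1%, with no interval shared between genotypes.

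The output of the pair as a whole followed its larger member. The sum of the copies was 43.9, 44.1 and 43.3 CPM in wild type and 34.7, 39.6 and 39.8 CPM in the mutant on the TMM scale. The genotypes did not overlap, with a log2 difference of −0.21, or −0.14 without mutant replicate 1. In absolute terms the difference, mutant minus wild type, was 1.97 CPM for Cbr-pcp-1.1 and −7.70 CPM for Cbr-pcp-1.2, so that the gain of one was smaller than the loss of the other. With library totals the sum went from 39.3 ± 0.845 to 42.6 ± 6.38 CPM (SD, n = 3 each) and the log2 difference was 0.11, so the direction of the sum also depended on scaling.

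In the library that stood apart, both copies stayed nearer to the other mutant libraries than most genes did. Mutant replicate 1 deviated from the other mutant libraries by −0.05 on the log2 scale for Cbr-pcp-1.1, a smaller deviation than that of most tested genes (5.27% were smaller still). For Cbr-pcp-1.2 the deviation was −0.21, with 23.1% of tested genes closer. Both deviations were under the median of 0.50 over all tested genes.

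Because whole animals were sequenced, fewer cells of a type and less RNA per cell cannot be told apart for either copy, and marker genes of tissues moved between the genotypes. The summed level of the 5 intestinal markers measured, of 10 listed, ran from 2268 to 2337 CPM in wild type and from 903 to 1002 CPM in the mutant, and all 5 were called lower. Both epidermal markers measured, of 6 listed, were called lower, with a sum of 503 ± 50.6 and 187 ± 25.7 CPM (SD, n = 3 each). Of 3 body muscle markers measured, of 6 listed, 2 were called lower, and the sum was 7332 ± 583 against 3228 ± 1190 CPM. Of the 6 germline markers measured, of 8 listed, 4 were called higher. The other 2 were not called, and were called lower without mutant replicate 1. Cbr-pgl-1 had 146, 140 and 158 CPM in wild type and 248, 59.5 and 61.8 CPM in the mutant. Cbr-htp-3 had 40.1, 46.4 and 37.9 CPM in wild type and 70.9, 25.1 and 25.2 CPM in the mutant. The sum of all 6 was 399 to 417 CPM in wild type, 635 and 648 CPM in mutant replicates 2 and 3, and 1108 CPM in mutant replicate 1. None of these markers was at 0 in any library. Of 6 neuronal markers listed, 0 were measured. The intestinal, epidermal and muscle markers could be named only because the study lists them as changed in this mutant. Their counts are thus no independent evidence of direction. The germline markers, too, were named through lists of genes called in this mutant or in others, so they are no random sample. The part of the marker changes in the values of the copies was not tested.

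Among the 5 annotated genes on each side of the pair, 2 could be tied to a row of the count table, and both lay on the side of Cbr-pcp-1.2. CBG00032, the third gene out, had 72.7, 69.0 and 68.3 CPM in wild type and 51.0, 30.3 and 31.4 CPM in the mutant. All mutant libraries were below wild type, with a log2 difference of −0.90 (standard error 0.22, edgeR adjusted p = 0.0308). Omitting any single library except mutant replicate 1 ended this call. CBG00031, the fourth gene out, averaged 225 ± 15 CPM over wild-type and 151 ± 29.8 CPM over mutant libraries (SD, n = 3 each). Its log2 difference was −0.58 (standard error 0.17), which missed the threshold (edgeR adjusted p = 0.0509). Without mutant replicate 1 both of these neighbours were called lower, 2 of 2. Both rows were found through lists of genes that the study called in this mutant, so the neighbours seen are not a fair sample of the locus. Cbr-mtx-2 and Cbr-cdh-3 and the other genes around the pair were not analysed here, nor were Cbr-pcp-3 and Cbr-pcp-5, the other named members of the family in RefSeq.

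Peptidases that work beside prolyl carboxypeptidase in the breakdown of proteins, and the lysosome that houses many of them, give the wider setting. Of 13 such genes whose names came from lists made for other mutants, 0 were called higher, 1 was called lower and 12 were not called, with a median log2 difference of −0.05. The median over all tested genes was 0.06. Calls in either direction came to 21.5% of all tested genes and to 33.8% of the 1366 tested genes named through the same lists for other mutants. These counts turned on mutant replicate 1: without it 5 of the 13 genes were called higher and 5 lower, beside 59.7% of all tested genes and 70.5% of those named through the lists for other mutants. The called gene was Cbr-spp-23, of the saposin-like proteins that bind membrane lipids, at 45.2 ± 11.2 CPM in wild type and 25.6 ± 4.01 CPM in the mutant (log2 difference −0.82, edgeR adjusted p = 0.0376). That call was lost with upper-quartile scaling, with library totals and without any 1 library other than mutant replicate 1. The spp genes entered the lysosomal list by name alone, and whether they act in the lysosome was not examined.

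A further 20 genes of these lists were named only through the study's list for Cbr-ivph-3, so they had been chosen for a change in these same libraries. Of them 8 were called higher, 6 lower and 6 not called, which is a description and no independent evidence. In the nearest class, the serine carboxypeptidases, Cbr-ctsa-1.2, a relative of cathepsin A, fell from 446 ± 68.5 to 237 ± 15.7 CPM (log2 difference −0.91, edgeR adjusted p = 0.00762). The other measured gene of that class, Cbr-ctsa-3.1, had 253 ± 15.5 and 237 ± 24.2 CPM and was not called (log2 difference −0.09). Among proline-specific and dipeptidyl peptidases, Cbr-dpf-3, of the dipeptidyl peptidase family, had a log2 difference of −0.41 and was not called (edgeR adjusted p = 0.0603). Cbr-acn-1, a relative of angiotensin-converting enzyme that in C. elegans lacks the catalytic residues, had −0.36 and was not called either. Cbr-pes-7, which entered that list by its name alone and is not known as a peptidase, had −0.71 without being called.

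The cysteine and aspartic peptidases, listed by name, gave 1 call among 7 genes. Cbr-asp-14, an aspartic protease, was called lower at a log2 difference of −0.41 (edgeR adjusted p = 0.0481), a call made in only 3 of 14 alternatives and lost without any wild-type library and without mutant replicate 2 or 3. Cbr-asp-14 was among the genes named through the Cbr-ivph-3 list. Cbr-asp-6, another aspartic protease named through that list, had 956, 1264 and 1097 CPM in wild type and 865, 368 and 396 CPM in the mutant. All mutant libraries were lower, with a log2 difference of −1.03, and the gene was not called (edgeR adjusted p = 0.0802). Cbr-cpz-1, of the cathepsin Z type, had 0.45 and Cbr-cpr-1, of the cathepsin B type, had −0.57, and neither was called. Cbr-cpl-1, of the cathepsin L type, had 1076 CPM in mutant replicate 1 and 474 and 481 CPM in the other mutant libraries, so that the library that stood apart set its spread.

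Genes of peptide uptake and aminopeptidases moved to both sides. All of them were named only through the list for Cbr-ivph-3, and so chosen for a change in these libraries. Cbr-pept-1, in C. elegans the main carrier of dipeptides into intestinal cells, fell from 513 ± 64.7 to 219 ± 46.1 CPM (log2 difference −1.23, edgeR adjusted p = 0.00729). Cbr-pept-2, a second carrier of that family, rose by 0.66 on the log2 scale (edgeR adjusted p = 0.0160). Cbr-lap-1, a leucine aminopeptidase that trims peptides from the other end, rose by 0.56 (edgeR adjusted p = 0.0144). The calls for Cbr-pept-2 and Cbr-lap-1 were lost when any wild-type library, mutant replicate 2 or mutant replicate 3 was omitted.

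In the lysosomal list the 3 genes with the smallest p all rose. These and Cbr-lmp-1 were named only through the list for Cbr-ivph-3, so their calls are no independent evidence. Of the 6 genes of this list named through other mutants, 0 were called higher and 1 lower. Cbr-lipl-1, a lysosomal lipase, had 13.1, 14 and 13.4 CPM in wild type and 60.7, 57.6 and 57.1 CPM in the mutant (log2 difference 2.12, edgeR adjusted p = 2.61e-04). Cbr-gba-3, of the glucocerebrosidase family, rose by 1.15 (edgeR adjusted p = 0.00291). Cbr-ctns-1, the cystine carrier of the lysosomal membrane, rose by 0.87 (edgeR adjusted p = 0.00429). These 3 calls, and those for Cbr-ctsa-1.2 and Cbr-pept-1, held under all 14 alternatives. Cbr-lmp-1, a protein of the lysosomal membrane, fell by 0.99 on the log2 scale, a call that ended without any wild-type library or without mutant replicate 3. Genes of this list, most of them chosen for a change in these libraries, thus went both ways. Cbr-pcp-1.1 and Cbr-pcp-1.2 lay inside the range they spanned.

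**Figure D4:**
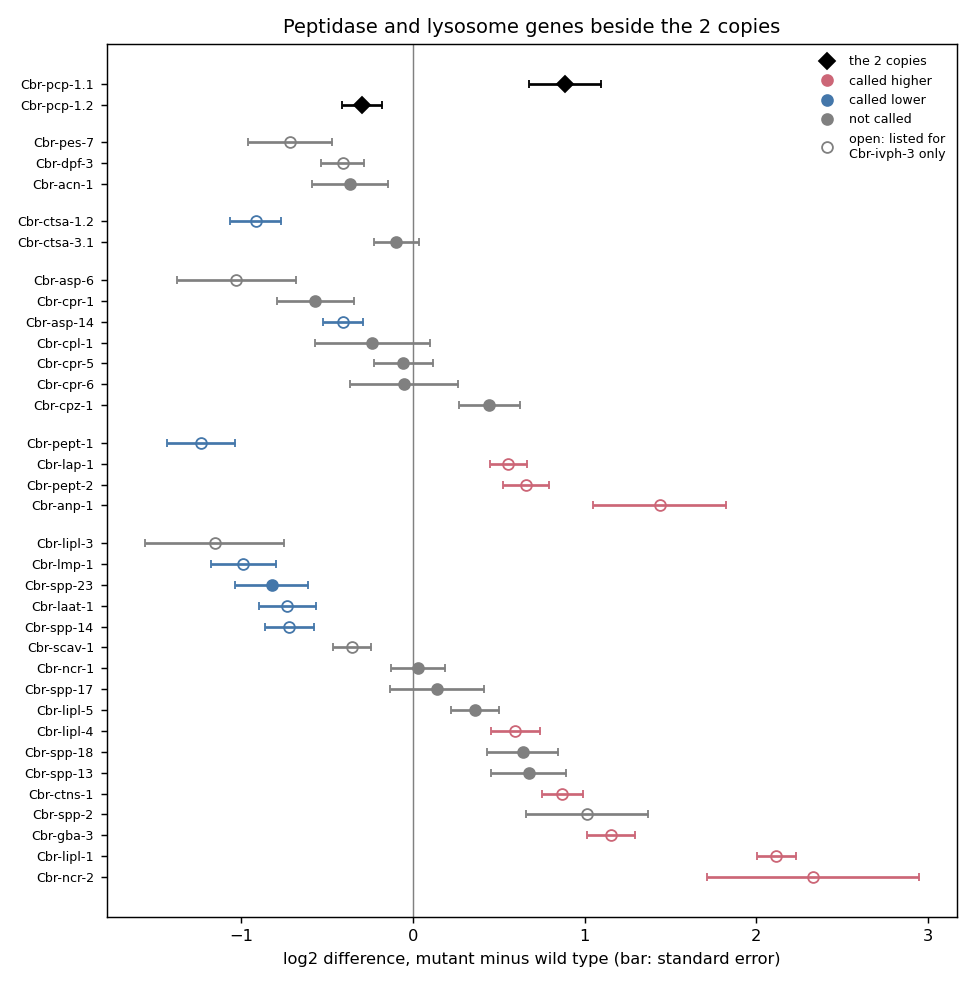
Log2 difference between mutant and wild type (horizontal axis) with its standard error for both copies and for 33 peptidase and lysosome genes. Blocks hold proline-specific and dipeptidyl peptidases, serine carboxypeptidases, cysteine and aspartic peptidases, aminopeptidases with peptide uptake, and lysosomal or saposin-like proteins. Red genes were called higher, blue genes lower and grey genes neither, and open circles mark genes named only through the list for Cbr-ivph-3. Filled circles hold 1 called gene of 13, Cbr-spp-23.

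Other pairs of genes named as copies of one another show how usual such a shift was. Names gave 28 pairs among 36 genes of 15 families, these copies included, and the pairs within a family share genes. Their names come mostly from genes called in this mutant or in others, so the pairs are not a random sample of duplicates. The difference between the log2 changes of Cbr-pcp-1.1 and Cbr-pcp-1.2 was 1.18, while the median over the 27 other pairs was 0.51, and 8 of them had a larger difference. Log2 changes of opposite sign were seen in 8 of the 27 (29.6%), and in 15 of them (55.6%) the ratio in all mutant libraries lay to one side of that in all wild-type libraries. For the 878 other pairs of adjacent genes tied to a row, the last share was 56.5%, and 286 (32.6%) had a larger difference than the copies. Those genes were tied to rows through the same lists, so they are no random sample of adjacent genes either. The shift of the pair was thus above the median of both sets and within the range of each.

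Opposite calls, with one copy called higher and the other lower, were made for 3 of the 28 pairs. Cbr-ucr-2.1 and Cbr-ucr-2.3, named for a core subunit of the mitochondrial complex that oxidises ubiquinol, had −1.2 and 2.46 on the log2 scale. Cbr-arf-1.1 and Cbr-arf-1.2, small GTPases of vesicle traffic, had 2.63 and −0.62. Cbr-gcp-2.1 and Cbr-gcp-2.2, of the glutamate carboxypeptidase family, had −0.48 and 1.07. The copies of prolyl carboxypeptidase were not among these, because Cbr-pcp-1.2 was not called. With DESeq2 and without mutant replicate 1 the number of such pairs was 4, and the prolyl carboxypeptidase copies were then among them. Besides them, only Cbr-nlp-34.2 and Cbr-nlp-34.3, neuropeptide-like genes, were adjacent on the chromosome, and these had 1.77 and 1.89, a difference of 0.13.

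**Figure D5:**
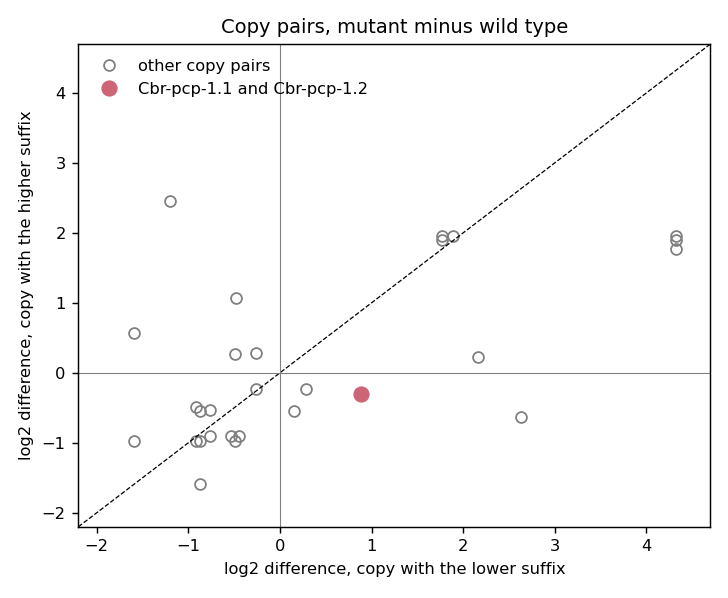
Log2 difference between mutant and wild type for the 28 copy pairs, with the copy of the lower suffix on the horizontal axis and that of the higher suffix on the vertical axis. The dashed line marks equal change, the red point is Cbr-pcp-1.1 (0.88) with Cbr-pcp-1.2 (−0.30), and 9 pairs, this one included, lie where the signs differ.

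Genes with the most similar pattern were sought among 1812 tested genes with a name, as the root mean square difference of log2 CPM over the 6 libraries after each gene was centred on its own mean. For Cbr-pcp-1.1 they were Cbr-col-83, of the cuticle collagens, at 0.0418, Cbr-mltn-3, of a family linked to molting, at 0.0611, Cbr-rdy-2 at 0.0856 and Cbr-him-19, known from meiosis in C. elegans, at 0.103. Cbr-col-83 shared the high wild-type replicate 2, with 2.09, 3.17 and 2.36 CPM in wild type and 4.54, 4.52 and 4.82 CPM in the mutant. For Cbr-pcp-1.2 they were Cbr-clip-1 at 0.0229, Cbr-hpo-12 at 0.0318, Cbr-rrbs-1 at 0.0328 and Cbr-nsun-5 at 0.0353. Cbr-clip-1 had 64.2, 64.0 and 62.8 CPM in wild type and 47.2, 55.1 and 52.7 CPM in the mutant, with replicate 1 the lowest as for Cbr-pcp-1.2. No gene was in both sets, which the opposite directions of the copies all but fixed in advance. Cbr-clip-1 is annotated on the same chromosome as the copies, and the share of all candidates there was not counted. The 1812 candidates were named mostly through lists of genes called in this mutant or in others.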

How the data were processed

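Per the study's methods, the authors processed paired-end reads in Galaxy: MultiQC, RNA STAR on the WS279 genome, and featureCounts over the exons of each gene, with read pairs counted as reverse-stranded. Tool versions are not given in the sources used here. The library kit named in the labels does not mark strand, and whether the libraries were stranded was not tested. If they were not, reverse-stranded counting would have left out read pairs of the other orientation and could not separate antisense transcripts, so the printed counts may be part of the read pairs of a gene. The deposited values are raw counts per gene, 1 table of 23169 genes that matched the 6 files of single libraries, and 0 columns were left out.

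Counts were fitted with edgeR 4.0.16 in R 4.3.3: TMM scaling, filterByExpr (14241 genes), quasi-likelihood test with genotype as the only term, Benjamini-Hochberg adjustment over all genes tested and a threshold of 0.05. Scripts were tested on simulated data. Standard errors of log2 differences were worked back from the test, as the absolute log2 difference over the square root of its F statistic. For the ratio they come from the 3 libraries of each group. No pair of libraries agreed within counting noise, the closest being mutant replicates 2 and 3 (chi-square per degree of freedom 2.44).

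The members and lists were chosen with earlier results of these data known. Named were both copies, 5 genes on each side, up to 3 genes of each list with the smallest p, 4 genes most like each copy (log2 CPM with prior count 2) and Cbr-ivph-3; the 3 oppositely called pairs and single genes such as Cbr-cpl-1, Cbr-cpr-1, Cbr-ctsa-3.1, Cbr-spp-23 and Cbr-lmp-1 were named after their values were seen. Row identifiers were tied to names through lists published with the study, of which only identifiers and names were used (3900 with a locus, 1860 with a symbol), and the lists' comparison values were not used. Of these loci, 3741 were found in the RefSeq table of CB4. Ratios of copy pairs used counts plus 0.5. Alternatives were other scalings, filters, DESeq2 1.42.0, limma-voom 3.58.1, a replicate block and each library left out.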

Additional observations from a re-analysis of the deposited data

How the results depend on the processing

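Leaving out 1 library at a time gave 605 to 4497 genes called higher and 625 to 4147 called lower, with the top of both ranges reached without mutant replicate 1. The log2 difference then ran from 0.75 to 1.03 for Cbr-pcp-1.1, from −0.35 to −0.24 for Cbr-pcp-1.2 and from −0.24 to −0.14 for their sum, and the shift of their ratio from 1.1 to 1.37. Of the 2 copies, 0 to 1 were called higher and 0 to 1 lower. Of the neighbours 0 to 2 were called lower, of the peptidase and lysosome genes 0 to 5 higher and 0 to 5 lower, and of the copy pairs 0 to 4 in opposite directions. With library totals, 3297 genes were called higher and 646 lower, Cbr-pcp-1.1 had 1.2, Cbr-pcp-1.2 turned to 0.025 and the sum to 0.11; 4 peptidase and lysosome genes of the list for other mutants were called higher and 0 lower, and 1 copy pair was called in opposite directions. Library totals move the median gene, whereas the other cause of each change was not tested. With upper-quartile scaling Cbr-pcp-1.2 had −0.21 and the sum −0.12, with 1 peptidase or lysosome gene called higher and 0 lower. DESeq2 called 1 of the copies and 2 neighbours lower, and 1 peptidase or lysosome gene higher. Limma-voom called 2 neighbours lower. With at least 10 counts in every library 1 copy pair was called in opposite directions.

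Replicate numbers do not pair the samples: the deviations of same-numbered libraries correlated at 0.15, 0.17 and −0.07. With the replicate block Cbr-pcp-1.1 had 0.90 and Cbr-pcp-1.2 −0.30, 0 of the copies were called higher, so that the call for Cbr-pcp-1.1 was lost, 1 peptidase or lysosome gene was called higher and 1 copy pair was called in opposite directions. For other prolyl carboxypeptidase genes no value could be had, since none was tied to a row. Most summary values were recomputed under 14 alternatives, the ratio of the copies under 6 and their sum under 9. Over all of these, 114 kept their direction and their side of the threshold or stayed within their spread, 53 did not and 2 turned direction (Cbr-pcp-1.2 and the sum, with library totals).

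The depth limits Cbr-pcp-1.1 most: at 45 to 64 wild-type read pairs, counting alone gives a coefficient of variation of 13.8%.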
